A study of Rattus norvegicus with 8 samples.

Results

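Platelet genes were followed across 8 arrays of a rat lung cancer model, as 10 genes that platelets and their parent cells are known for, namely Pf4, Ppbp, Gp1bb, Gp9, Gp5, Selp, Itga2b, Itgb3, Gp6 and Treml1. A gene was taken as measured where a probe of the array carried a RefSeq accession of that gene. This held for 6 of the 10 genes, out of 13903 named genes on the array, with 1 probe and 1 spot each. Itga2b, Itgb3, Gp6 and Treml1 had no probe matched in this way and were not analysed here. The lung samples were 3 lung tumor tissues, classed in the study as moderately differentiated adenocarcinoma, and 3 matched normal lung tissues of male F344 rats that had received NNK, a nitrosamine of tobacco smoke, and they were taken in week 95. The blood samples were the clot from whole blood of 1 male F344 rat of the control group and of 1 male F344 rat of the NNK treatment group, also in week 95. No lung tissue of untreated rats was among the samples, so every normal lung tissue carried the NNK exposure as well. The sources used here do not say whether the NNK clot came from a rat that also gave lung tissue.

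Platelets are cell fragments without a nucleus that are shed by megakaryocytes, and they carry RNA left over from those cells. Their surface holds the GPIb-IX-V receptor, which catches von Willebrand factor on an injured vessel wall. This receptor is built from the products of Gp1ba, Gp1bb, Gp9 and Gp5. Their alpha granules hold the chemokines platelet factor 4, encoded by Pf4, and pro-platelet basic protein, encoded by Ppbp, which are released when a platelet is activated. P-selectin, encoded by Selp, lies in the same granules and in endothelial cells and binds leukocytes. The lung is rich in capillaries, and in rodents megakaryocytes also release platelets there.

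The promoters of Gp1bb, Gp9, Ppbp and Gp5 are shown because the first 3 of these genes read lower in tumor than in normal lung while Gp5 did not. Gp9 and Ppbp were above background on no tumor array, so their falls are known only as bounds. Each runs from 250 bases before to 50 bases after the start of the gene in RefSeq on the rat build GRCr8, 300 bases in all, and is written 5′ to 3′ on the strand of the gene. Gp1bb lies at chr11:95882311-95882610 on the plus strand, Gp9 at chr4:121792592-121792891 on the plus strand, Ppbp at chr14:17587250-17587549 on the minus strand and Gp5 at chr11:83948257-83948556 on the plus strand. Capitals mark matches, on either strand, to 3 short motifs. The GATA factor motif was AGATAA or TGATAA. The ETS factor motif was AGGAAG or CGGAAG. The RUNX motif was TGTGGTT, and no match of one motif overlaps another in these 4 promoters. GATA1, FLI1 and RUNX1 are factors of these families that megakaryocytes are known to use.
Gp1bb: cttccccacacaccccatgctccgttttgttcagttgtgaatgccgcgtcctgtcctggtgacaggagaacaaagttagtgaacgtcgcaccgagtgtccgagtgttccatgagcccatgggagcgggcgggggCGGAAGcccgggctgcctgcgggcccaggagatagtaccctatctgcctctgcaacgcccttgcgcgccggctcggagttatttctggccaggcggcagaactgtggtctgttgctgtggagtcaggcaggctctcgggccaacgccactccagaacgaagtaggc
Gp9: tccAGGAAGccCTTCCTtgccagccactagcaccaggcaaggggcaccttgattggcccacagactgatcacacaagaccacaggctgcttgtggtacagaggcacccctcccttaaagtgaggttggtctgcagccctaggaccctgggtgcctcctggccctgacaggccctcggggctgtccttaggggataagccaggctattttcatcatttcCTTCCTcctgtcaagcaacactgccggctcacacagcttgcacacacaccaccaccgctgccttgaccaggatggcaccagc
Ppbp: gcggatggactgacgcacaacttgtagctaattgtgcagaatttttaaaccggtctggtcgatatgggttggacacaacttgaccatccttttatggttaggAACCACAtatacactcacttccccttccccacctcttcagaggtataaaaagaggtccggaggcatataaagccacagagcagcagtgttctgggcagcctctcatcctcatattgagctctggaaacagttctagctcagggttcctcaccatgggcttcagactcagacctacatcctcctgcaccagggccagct
Gp5: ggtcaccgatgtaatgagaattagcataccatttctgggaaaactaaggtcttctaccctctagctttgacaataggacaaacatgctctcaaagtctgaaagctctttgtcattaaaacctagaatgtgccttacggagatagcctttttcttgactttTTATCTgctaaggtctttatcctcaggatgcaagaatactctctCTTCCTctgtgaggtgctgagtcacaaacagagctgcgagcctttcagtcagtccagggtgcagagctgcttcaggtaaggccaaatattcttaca
Gp1bb had 1 ETS match, Gp9 had 3, Ppbp had 1 RUNX match, and Gp5 had 1 GATA and 1 ETS match. Of the 33469 promoters of this length in the table, 18.9% held a GATA match, 45.5% an ETS match and 5.57% a RUNX match. Such matches are common, and the letters do not show that a factor binds. Pf4 and Selp had no entry in the table of promoters.

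The labels of the arrays were compared with the data before the members were read. The label field that describes the NNK clot was worded like that of lung tumor 3, although every other field of that sample named a clot. The erythroid markers summed to 2680000 on that array and to 2780000 on the control clot, on a linear scale within tissue, against 134000 to 248000 on the lung arrays. The alveolar markers summed to 45000 on the NNK clot and 46600 on the control clot, against 1600000 to 1850000 on the lung arrays. Of the 11 alveolar markers 9 were well above background on the NNK clot and 7 on the control clot, with Sftpb and Lamp3 above it on the NNK clot only and Sftpc and Aqp5 on neither. Nkx2-1, a factor of lung epithelium, read 15.31 on the NNK clot and 15.41 on the control clot. The array was used as blood, as most of its labels say. The arrays were scanned in 3 sessions, with the 3 normal lungs and lung tumor 1 in the first, both clots in the second and lung tumors 2 and 3 in the third. The normal lung arrays differed from each other by 0.819 to 1.37 times the variance expected from repeated spots within an array, and lung tumors 2 and 3 by 0.591 times, while lung tumor 1 differed from them by 6.25 and 6.42 times. The 3 normal lungs were thus about as far apart as repeated spots of 1 array, and lung tumors 2 and 3 closer than that, so p-values below may measure technical spread, and the lung values of the members and of the platelet list genes named, with the counts of calls over all probes and over the platelet lists, were also computed with such arrays counted as 1 sample. Feature Extraction marked 3.9 to 7.64% of the bright mRNA spots on the normal lung arrays as outliers, 17.8 to 29.0% on the tumor arrays and 0.966 to 1.42% on the clots. The median processed signal was 25 to 35.6 on the lung arrays, 11.8 on the control clot and 32 on the NNK clot.

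The first comparison asked in which tissue the platelet genes had their signal. Pf4, Ppbp, Gp1bb, Gp9 and Gp5 were all far brighter in the clots than in normal lung, by 71.7 to 348-fold, and both clots lay above all 6 lung arrays for each of them. The members were known beforehand as blood genes, so this is a check of the labels. Values in this comparison are log2 processed signals after quantile normalization over all 8 arrays.

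Among the chemokines, Pf4 read 10.96, 11.07 and 11.05 on normal lungs 1 to 3, 12.10, 11.87 and 11.95 on lung tumors 1 to 3, 17.40 on the control clot and 16.99 on the NNK clot. The clots exceeded normal lung by 6.16 on the log2 scale (71.7-fold, SE 0.178, limma adjusted p = 1.63e-07). Ppbp read 5.45, 5.0 and 4.96 on the normal lungs, 3.00, 2.09 and 2.75 on the tumors, 13.39 on the control clot and 11.82 on the NNK clot. Its difference between clot and normal lung was 7.46 (177-fold, SE 0.501, limma adjusted p = 1.21e-05), and this was 103-fold without the control clot and 304-fold without the NNK clot. For Ppbp the order of the groups was control clot, NNK clot, normal lung and tumor, with no overlap, and for Pf4 the tumors lay above the normal lungs instead.

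Among the subunits of the von Willebrand receptor, Gp1bb read 9.17, 9.19 and 9.20 on the normal lungs, 7.45, 7.57 and 7.55 on the tumors, 16.02 on the control clot and 15.26 on the NNK clot. The difference between clot and normal lung was 6.45 (87.6-fold, SE 0.232, limma adjusted p = 6.39e-07). Gp9 read 4.51, 4.99 and 4.84 on the normal lungs, 3.55, 2.56 and 2.09 on the tumors, 13.32 on the control clot and 11.97 on the NNK clot. Gp1bb and Gp9 had the same order of groups as Ppbp, with no overlap. Gp9 differed by 7.87 between clot and normal lung (233-fold, SE 0.540, limma adjusted p = 1.36e-05), and by 146-fold without the control clot and 373-fold without the NNK clot. Gp5 read 5.90, 5.49 and 5.83 on the normal lungs, 5.80, 6.51 and 6.74 on the tumors, 14.21 on the control clot and 14.15 on the NNK clot. Its difference was 8.44 (348-fold, SE 0.300, limma adjusted p = 6.01e-07), and its tumor and normal lung values overlapped.

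On none of the 8 arrays, the clots included, was Selp well above background, with processed signals between 2.1 and 6.2. No level, fold or direction is given for this gene.

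**Figure D1:**
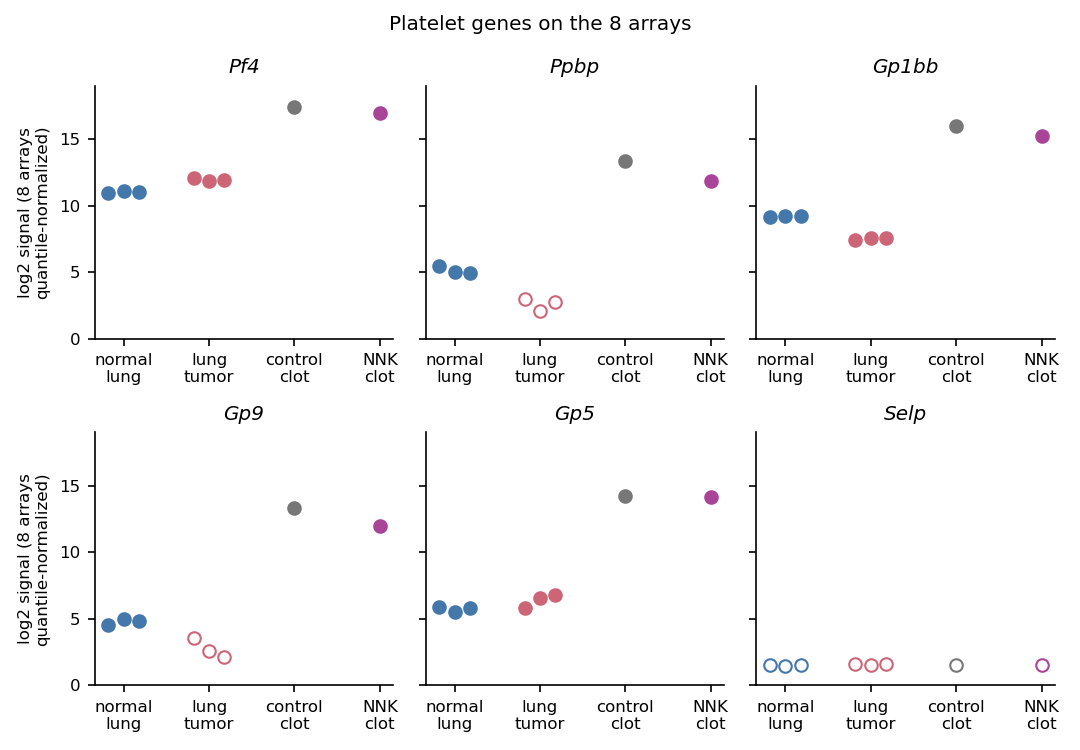
Log2 processed signal of the 6 measured platelet genes on each of the 8 arrays, quantile-normalized over all 8 arrays, 1 point per array and 1 panel per gene. Open points are not well above background. Every filled clot point of Pf4, Ppbp, Gp1bb, Gp9 and Gp5 lies above all lung points, and Selp is open throughout.

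All 5 genes passed the threshold of a 2-fold change and an adjusted p of 0.05 in the direction of the clot, where 31.9% of the 17186 probes tested did so and 45.8% passed in the direction of lung. The median over all probes tested was -0.97 on this scale. Scaling the arrays by their 75th percentile moved that median to 0.36, and taking the percentile over probes well above background on all 8 arrays moved it to 1.21. The split of calls moved from 5486 probes higher and 7875 lower to 7343 and 6530, and to 8559 and 5160. The lowest difference of any of the 5 genes over up to 14 alternatives was 5.91, for Pf4, so the direction held under each scaling, but the size did not. Under these 2 scalings the excess of the clots was 208 and 374-fold for Pf4, 213 and 384-fold for Ppbp, 145 and 261-fold for Gp1bb, 283 and 510-fold for Gp9, and 497 and 893-fold for Gp5. The clots and the lungs were scanned in different sessions, and tissue and session cannot be told apart.

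The second comparison was between lung tumor and the matched normal lung. Ppbp, Gp9 and Gp1bb fell in the tumors, while Pf4 was higher by just under the 2-fold threshold and Gp5 did not pass the test. Of the 5 genes tested, 3 passed as lower and none as higher, against 15.5% of the 12471 probes tested in lung that passed as lower and 13.5% that passed as higher. Of the 3 lower genes, Gp9 and Ppbp were dim in every tumor and entered the test only through the normal lungs, where they are brighter, so the count of 3 is no measure of the members against the other probes. In bulk tissue, fewer cells of a type and less RNA per cell cannot be told apart. Values here were quantile-normalized within the 6 lung arrays.

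Gp1bb, the beta chain, which is bound by a disulfide bond to the ligand-binding chain of the receptor, had processed signals of 933.7, 1031.2 and 920.2 on normal lungs 1 to 3 and 256.1, 292.9 and 286.0 on lung tumors 1 to 3. The groups did not overlap, and all 6 arrays were well above background. On the normalized log2 scale the values were 9.92, 9.94 and 9.94 in normal lung and 7.94, 8.08 and 8.06 in tumor. Gp1bb fell by 1.91 (3.76-fold lower, SE 0.060, limma adjusted p = 9.05e-06). The fall passed the threshold under all 19 alternatives, with differences from -2.0 to -1.61 and a highest adjusted p of 0.0369, which came with near-identical arrays counted once.

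Gp9, the small subunit that is needed for the receptor to reach the surface, had processed signals of 21.1, 36.8 and 28.2 in normal lung and 10.7, 8.0 and 6.3 in tumor. It was dim throughout lung, and no tumor array was well above background. On the log2 scale it read 4.65, 5.16 and 5.0 in normal lung and 3.63, 2.60 and 2.13 in tumor, with no overlap. The fitted difference was -2.15 (SE 0.405, limma adjusted p = 0.00588), and against the background the mean of the 3 tumors was at least 3.42-fold lower. Within the first scan session lung tumor 1, itself not well above background, gave a smaller fitted difference of -1.31. The call was lost with near-identical arrays counted once (-1.94, adjusted p = 0.156), in the methods' paired t-test (adjusted p = 0.111, limma being the main test) and with normexp background correction (-0.36).

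Ppbp, whose product is cut to chemokines that draw neutrophils, had processed signals of 44.0, 37.3 and 30.5 in normal lung and 7.0, 6.0 and 9.7 in tumor. All 3 normal lungs were well above background and none of the tumors was. On the log2 scale it read 5.67, 5.18 and 5.13 in normal lung and 3.05, 2.13 and 2.80 in tumor, with no overlap. The fitted difference was -2.67 (SE 0.286, limma adjusted p = 0.00064), and the level in tumor was at least 4.48-fold lower. With normexp background correction, which draws dim signals together, the difference was -0.51 and no longer passed the fold threshold.

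Pf4, a chemokine that binds heparin and lies beside Ppbp on chromosome 14, went the other way. Its processed signals were 3921.7, 4613.5 and 4109.3 in normal lung and 8657.8, 7027.0 and 7445.7 in tumor. All tumors were above all normal lungs. Feature Extraction had marked the spot of Pf4 as an outlier on all 6 lung arrays and on neither clot, so the values of Pf4 in lung come from a fit that kept marked spots. In that fit it read 11.92, 12.04 and 12.02 in normal lung and 13.10, 12.87 and 12.95 in tumor, and the difference was 0.98 (1.97-fold, SE 0.0814, limma adjusted p = 0.000203). It lay 0.02 below the fold threshold. It passed the threshold within the first scan session (1.11), where lung tumor 1 stands alone and is assumed to vary like the normal lungs, without normal lung 2 (1.00) and without lung tumor 2 (1.03). With near-identical arrays counted once it was 1.01 with an adjusted p of 0.075.

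Gp5, the subunit of the receptor that thrombin cuts, had processed signals of 63.2, 53.6 and 59.1 in normal lung and 67.5, 128.8 and 156.5 in tumor. On the normalized log2 scale, lung tumor 1 at 6.07 lay within the normal lungs at 6.17, 5.71 and 6.09, while lung tumors 2 and 3 lay above them at 6.86 and 7.12. The difference was 0.69 (SE 0.304, limma adjusted p = 0.0949). Without lung tumor 1 it was 1.00 and passed (adjusted p = 0.00783), and within the first scan session, where lung tumor 1 was set against the normal lungs, it was 0.08. Lung tumors 2 and 3 shared a scan session of their own, and the part of the session in the difference was not tested apart from that value.

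The changes of Gp5 and Gp1bb, the receptor subunits among the members that were above background on every array, were then compared. Between tumor and normal lung the change of Gp5 exceeded that of Gp1bb by 2.60 on the log2 scale, and the tumor arrays did not overlap the normal arrays in this difference. It holds the fall of Gp1bb by 1.91 and the difference of Gp5 by 0.69, both given above, so it is no separate result. Within the first scan session the difference of Gp5 was 0.08. The exact two-sided permutation p was 0.1, which is the smallest that 3 against 3 arrays allow, so the test cannot pass 0.05. The permutation also counted near-identical arrays as separate samples. Of the 3 such comparisons computed, those of Gp5 with Gp9 and of Pf4 with Ppbp are not given, because Gp9 and Ppbp have only bounds in tumor, and the adjusted p was 0.1 for all 3.

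**Figure D2:**
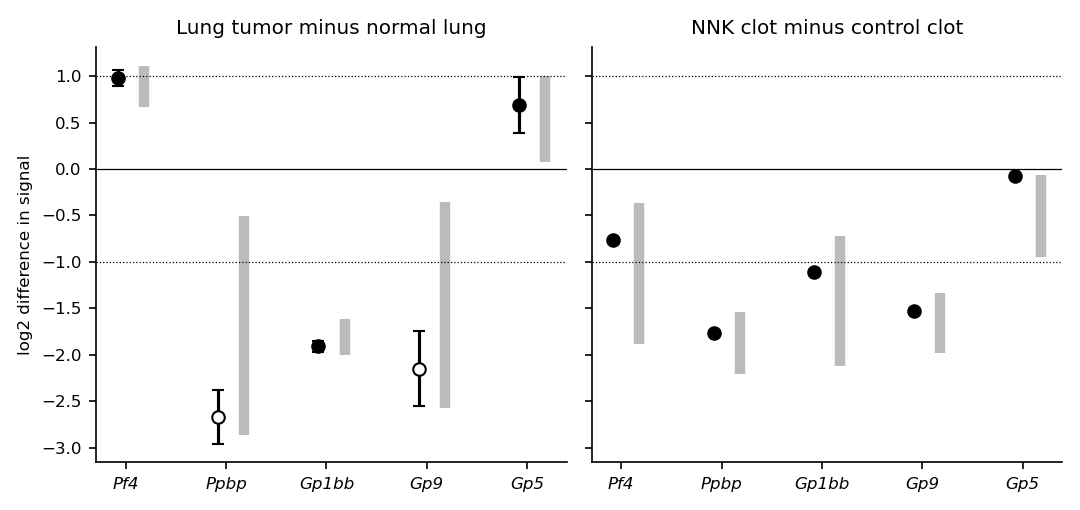
Log2 difference in signal of 5 platelet genes, lung tumor minus normal lung with its standard error on the left and NNK clot minus control clot (1 array each) on the right. Open points mark genes without a tumor array above background, grey bars span the alternatives, and dotted lines mark 2-fold. Ppbp, Gp1bb and Gp9 lie below the lower dotted line in both panels, whereas Pf4 at 0.98 and Gp5 at 0.69 lie above 0 in lung.

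The ligand-binding chain of the receptor, Gp1ba, belongs to a wider list of platelet genes and gave a further subunit. It read 8.14, 8.05 and 8.14 in normal lung and 5.56, 5.49 and 5.37 in tumor, a fall of 2.64 (SE 0.0712, limma adjusted p = 6.23e-06). It fell under all 19 alternatives, as Gp1bb did, whereas the call of Gp9 did not hold under all of them. The gene beside Gp1bb on chromosome 11 is Septin5, a septin that platelets also hold, and in human its transcripts can run on into Gp1bb. Septin5 read 10.64, 10.60 and 10.62 in normal lung and 8.58, 8.83 and 8.42 in tumor, a difference of -2.01 (SE 0.112, limma adjusted p = 4.38e-05) that is close to that of Gp1bb. The share of the Gp1bb signal that comes from such transcripts was not tested.

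The wider platelet lists held 125 other genes, of which 100 were on the array and 72 were tested in lung. Of these, 16 fell and 8 rose in tumor, with a median difference of -0.11 against 0.07 over all probes tested. These are 22.2% and 11.1% of the genes tested, against the 15.5% and 13.5% of all probes given above. The transcription and growth genes of megakaryocytes had 5 of 10 lower and none higher, with a median of -1.25. These 5 were not alike in tissue. Gata1, Nfe2 and Tal1 were brighter in the clots than in normal lung, by 7.62, 6.06 and 1.85 on the log2 scale. Gata2 and Meis1 were brighter in normal lung, with differences of -6.09 and -4.42. The cells behind these falls were not tested. Of the receptors 4 of 14 were lower and none higher, and of the granule contents 2 of 7 were lower and 1 higher. Signaling had 3 of 19 lower and 4 higher, secretion and granule biogenesis 1 of 11 lower and 2 higher, and the cytoskeleton 1 of 11 lower and 1 higher.

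The largest falls in these lists were those of Stx11 at -3.22, a syntaxin of granule release (SE 0.207, limma adjusted p = 9.05e-05), F2rl2 at -2.76, a thrombin receptor (SE 0.111, adjusted p = 1.77e-05), Gata1 at -2.76, the transcription factor of red cells and megakaryocytes (SE 0.207, adjusted p = 0.000159), Gng11 at -2.69, a G protein gamma subunit (SE 0.0985, adjusted p = 1.40e-05), and Gp1ba. Gata1 read 7.75, 7.74 and 7.93 in normal lung and 4.76, 5.49 and 4.90 in tumor. All 5 fell under each of the 19 alternatives. Not all of them had their signal in blood. Against normal lung, F2rl2, Gata1 and Gp1ba were higher in the clots, by 5.52, 7.62 and 4.38. Gng11 was lower there, at -4.23, and Stx11, at -0.76, did not pass. Among the largest rises were those of Plcb2, a phospholipase C, at 2.07 (adjusted p = 0.038), Tpm1, a tropomyosin, at 1.91 (adjusted p = 9.66e-05), and Alox12, the 12-lipoxygenase of platelets, at 1.5 (adjusted p = 2.87e-05). Stxbp2, a partner of syntaxins, was not well above background in any normal lung and entered the test only through the tumors, so it is given without a rank. It was at least 1.81-fold higher in tumor (adjusted p = 0.000268), a call that was lost with normexp background correction (0.20). Plcb2 passed in 6 of 18 alternatives only, and within the first scan session its difference was 0.61. It was well above background in neither clot, whereas Tpm1 and Alox12 were higher in the clots than in normal lung, by 4.61 and 4.34. Of the 9 probes of Tpm1, 7 of the 8 tested passed as higher, and the other, at 0.80, did not.

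Markers of other blood and vessel cells moved with these genes in lung. Over all probes 15.5% were lower in tumor and 13.5% higher. Of the erythroid markers 8 of 11 tested were lower in tumor and none was higher, and their summed linear level was 240000 to 248000 in normal lung and 134000 to 143000 in tumor. Of the endothelial markers 5 of 9 were lower and none higher, with a summed level of 544000 to 546000 against 129000 to 130000, and Cdh5, which defines these cells, failed the background mark on all 8 arrays. Of the neutrophil markers 3 of 5 were lower and none higher. Of the T cell markers 3 of 9 were lower and none higher, with a median of -0.63 and a summed level of 32500 to 34100 in normal lung and 16600 to 18800 in tumor. Of the 4 B cell markers 1 was lower and 1 higher. Of the 6 monocyte and macrophage markers tested none passed in either direction, and they summed to 157000 to 168000 in normal lung and 169000 to 199000 in tumor. The part of red cells, vessel cells, neutrophils or T cells in the falls of Gp1bb, Gp9, Ppbp and Gata1 was not tested.

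**Figure D3:**
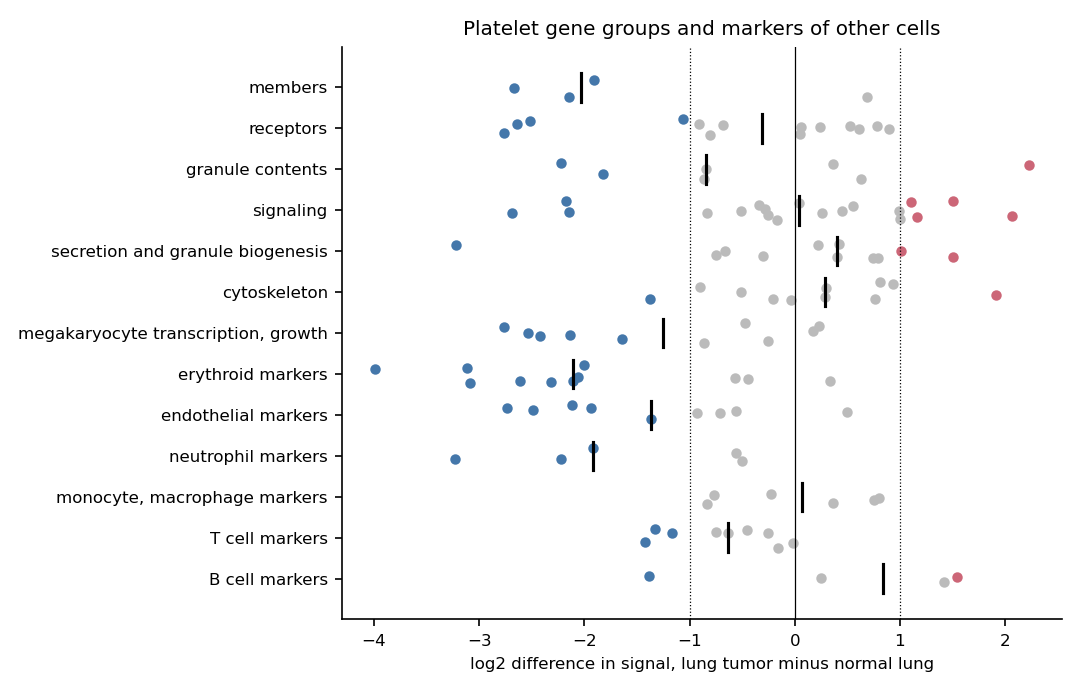
Log2 difference in signal, lung tumor minus normal lung, with 1 point per tested gene in the members, the 6 wider platelet lists and the markers of other cells, Pf4 being absent because its marked spots were left out here. Blue and red points passed as lower and higher, grey points did not pass, black bars are medians and dotted lines mark 2-fold. The megakaryocyte transcription and growth list has its median at -1.25 and the erythroid markers at -2.11.

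The third comparison set the clot of the NNK rat against that of the control rat, with 1 array each, so that no test was possible and the differences compare these 2 libraries only. All 5 genes read lower in the NNK clot, but by different amounts. Ppbp, Gp9 and Gp1bb differed by at least 2-fold, which is 3 of 5 against 19.1% of the 14452 probes compared that were lower by that much and 23.1% that were higher. Values here were quantile-normalized within the 2 clots, where the median over all probes was -0.11.

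Ppbp had a processed signal of 1298.8 in the control clot and 605.6 in the NNK clot. After normalization the values were 10.59 and 8.82, a difference of -1.77 on the log2 scale (3.41-fold lower). Gp9 had processed signals of 1207.7 and 662.8 and normalized values of 10.49 and 8.97, a difference of -1.53 (2.89-fold lower). Both stayed at least 2-fold lower under all 8 alternatives.

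Gp1bb had processed signals of 22289.6 and 11057.1, and normalized values of 14.48 and 13.37, a difference of -1.11 (2.17-fold lower). It dropped under 2-fold when the clots were normalized together with the lungs (-0.75) and in the log2 values of the authors (-0.72), and was -2.12 with a shift of the 75th percentile. Pf4 had processed signals of 128618.4 and 75499.4 and normalized values of 16.93 and 16.17, a difference of -0.76 (1.69-fold lower). It ranged from -1.88 with a shift of the 75th percentile to -0.37 in the log2 values of the authors. Gp5 had processed signals of 3095.9 and 3466.3 and normalized values of 11.71 and 11.63, a difference of -0.08 (1.06-fold lower), and its unnormalized signal was the higher of the 2 in the NNK clot. For Gp5 this difference lay within the spread between spots, which was 0.298 on the log2 scale for a blood difference, but with a shift of the 75th percentile it was -0.95 (1.93-fold lower).

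Gp5 thus had the smallest difference of the receptor subunits, and Gp1ba the largest, with 10.68 in the control clot and 7.74 in the NNK clot (7.67-fold lower). Septin5 differed by -0.93. The comparison of tumor with normal lung and that of the clots share no array, whereas clot against normal lung shares arrays with each of them.

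The platelet receptors as a list were lower in the NNK clot, with 11 of 16 compared lower by at least 2-fold, none higher and a median of -1.39. Of those 11, P2ry1 and Tbxa2r were not well above background on the NNK clot. Over all 6 wider lists 31 of 87 genes were lower and 10 higher, with a median of -0.54, and with a shift of the 75th percentile 46 were lower and 9 higher. The 31 lower genes are 35.6% of those compared, against 19.1% of all probes, but 8 of the 31 were not well above background on the NNK clot and were compared only through the control clot, where they are brighter. Among genes well above background on both clots 23 of 78 were lower (29.5%) and 10 higher (12.8%), against 14.9% and 18.1% of the 11615 probes under that filter. The largest differences among genes well above background on both clots were those of Pear1, a receptor that strengthens platelet aggregation, at -3.41, Gp1ba at -2.94, Stx11 at -2.80, Rab27b, a small GTPase of dense granules, at -2.46, and Cd226, an adhesion receptor, at -2.45. Under the alternatives Pear1 ranged from -5.69 to -1.96 and Gp1ba from -3.3 to -2.59, and none of these genes turned. P2ry12, the ADP receptor, differed by -1.97 and Cd36, a receptor for thrombospondin and fatty acids, by -1.38.

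The other lists had medians above that of the receptors. Their counts stand against 19.1% of all probes lower and 23.1% higher. The granule contents had 3 of 9 lower and 2 higher with a median of 0.32, and the megakaryocyte transcription and growth genes 2 of 13 lower and 3 higher with a median of -0.36. The signaling genes had 7 of 23 lower and 2 higher with a median of -0.43, secretion and granule biogenesis 6 of 16 lower and 3 higher with a median of -0.15, and the cytoskeleton 2 of 10 lower and none higher with a median of -0.65. Of the lower genes, 2 of the granule contents, 3 of signaling and 1 of secretion were not well above background on the NNK clot. They were compared only through the control clot, where they are brighter, so these 3 counts are no measure of the lists against the array. The genes that were higher in the NNK clot by the most were Vamp8, a vesicle protein of granule release, at 2.28, Fli1, an ETS factor, at 2.17, Vav1 at 2.04, Stat5a at 1.93 and Lat at 1.63. Under the alternatives Vamp8 ranged from 1.73 to 3.24 and Stat5a from 1.17 to 3.33, while Fli1 went down to 1.61 and Lat to 1.11. Vav1 and Lat also signal in T cells, and Fli1 and Stat5a are expressed in leukocytes at large.

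Some leukocyte markers differed the other way from the platelet receptors. Of the T cell markers 6 of 10 were at least 2-fold higher in the NNK clot and none lower, with a median of 2.05, against 23.1% of all probes higher and 19.1% lower. Of the other 4 T cell markers compared, Cd8b differed by 0.05, Cd3d by -0.26, Cd2 by -0.54 and Cd5 by -0.85, and the summed linear level of the list was 35600 in the control clot and 39500 in the NNK clot. Of the neutrophil markers 4 of 9 were higher and 1 lower, and their summed linear level was 23800 in the control clot and 80300 in the NNK clot. S100a8 alone made up 13400 and 67200 of these, and the other 11 genes summed to 10400 and 13100. Of the erythroid markers 2 of 14 were lower and none higher, with a median of -0.44. The part of the share of white cells in the lower platelet values of the NNK clot was not tested.

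**Figure D4:**
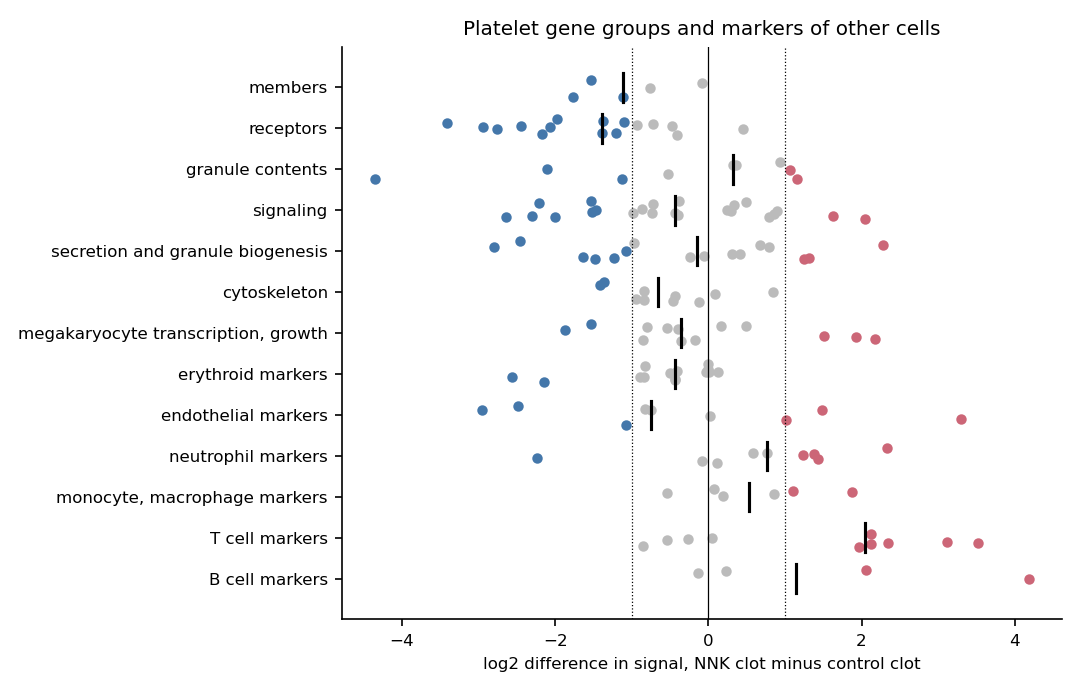
Log2 difference in signal, NNK clot minus control clot, 1 array each, with 1 point per compared gene in the members, the 6 wider platelet lists and the markers of other cells. Blue and red points are at least 2-fold lower or higher, black bars are medians and dotted lines mark 2-fold. The platelet receptors have their median at -1.39 and the T cell markers at 2.05.

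Between clot and normal lung the wider lists held genes of either direction. Of 89 genes tested, 35 were higher in the clots and 30 lower, with a median of 0.45 against -0.97 over all probes. These are 39.3% and 33.7%, against 31.9% and 45.8% of all probes. Of the 35 higher, 4 were well above background in no normal lung, and of the 30 lower, 6 in neither clot, so these entered the test only through the brighter tissue and the shares are no measure of the lists against the array. The 5 genes with the largest fitted excess in the clots, given here without a rank, were Ptger3, a prostaglandin receptor, at 8.23 (limma adjusted p = 7.74e-05, above background in 1 of 3 normal lungs), Stxbp2, which was below background in all normal lungs and at least 151-fold higher in the clots (adjusted p = 4.74e-06), Gata1 at 7.62 (adjusted p = 3.41e-07), Gfi1b, a repressor of the red cell and megakaryocyte lineages, at 7.31 (adjusted p = 4.29e-07), and Nfe2, a factor needed for platelet release, at 6.06 (adjusted p = 2.16e-07). Normalized within lung, Ptger3 read 3.6, 6.13 and 3.22 on normal lungs 1 to 3, so the size of its excess depends on which normal lungs are counted. Red cell precursors use Gata1, Gfi1b and Nfe2 too, and all 12 erythroid markers tested were higher in the clots, with a median of 7.01.

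Sparc had no value in normal lung once marked spots were left out, so it was not tested, but it was at least 127-fold lower in the clots. Among the platelet list genes tested, those lower in the clots than in normal lung by the most were the following 5. Gas6, a ligand of growth and survival receptors, was at least 692-fold lower (limma adjusted p = 1.64e-05). Pdgfa, a platelet-derived growth factor chain, was at least 454-fold lower (adjusted p = 2.31e-06). Neither Gas6 nor Pdgfa was well above background in a clot. F2r, a thrombin receptor, differed by -7.07 (adjusted p = 4.74e-07), Rab38 by -6.39 (adjusted p = 7.24e-06) and Gata2 by -6.09 (adjusted p = 0.000159). Of the granule contents 7 of 11 were lower in the clots and 2 higher, but Gas6, Igf1, Pdgfa and Tgfb1 among the 7 were well above background in neither clot, and the bounds of Igf1 and Tgfb1 do not reach 2-fold. The receptors had 7 of 15 higher and 6 lower, and signaling 13 of 24 higher and 5 lower. Secretion and granule biogenesis had 3 of 15 higher and 4 lower, and the cytoskeleton 5 of 11 higher and 3 lower. Megakaryocyte transcription and growth had 5 of 13 higher and 5 lower. Over all probes 31.9% were higher and 45.8% lower. P2rx1, Rab27b and Stxbp2 were called higher with no normal lung above background, and Plcb2 and Diaph1 lower with no clot above it. The counts that hold such genes are no measure of those lists against the array.

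The profile of Pf4 was compared with those of 11687 mRNA probes of other genes over the 8 arrays, after each profile had been centred on its own mean. The nearest were Rffl at a Euclidean distance of 0.334 on the log2 scale, Add2 at 0.344, Myh3 at 0.500, Fam210b at 0.505 and Bard1 at 0.527. Rffl read 8.56, 8.56 and 8.51 in normal lung, 9.26, 9.31 and 9.31 in tumor, and 14.85 and 14.38 in the control and NNK clots. Like Pf4, these 5 genes were brightest in the clots and higher in tumor than in normal lung on every array. They were picked for their likeness to Pf4, so this shared order follows from the choice. The arrays that set this likeness are few and fall into lung and blood, and marked spots were kept for it.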

How the data were processed

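RNA of 6 lung and 2 blood samples was measured with the Arraystar rat lncRNA array, 1 array per sample. The authors deposited intensities per spot from Agilent Feature Extraction 10.5.1.1 (build rn4 per the file headers), from which the software had already subtracted the background, without scaling across arrays. A deposited table of log2 values, which the authors had quantile-normalized over all 8 arrays, served as an alternative. The deposited marks for outlier, saturated and background-level spots were read as given.

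With R 4.3.3 and limma 3.58.1, log2 processed signals of 42136 spots were quantile-normalized within the 6 lung arrays, within the 2 blood arrays, and over all 8 for clot against lung. Spots marked as outliers were left out and spots of a probe averaged. A probe was well above background where over 50% of its spots were. Tests took probes well above background on at least 3 lung arrays (2 of 8 for clot against lung, 1 of 2 for the clots) with values on at least 2 arrays per group. lmFit and eBayes were used with Benjamini-Hochberg adjustment over all probes, and a call needed a 2-fold change and an adjusted p of 0.05. For clot against lung, both clots formed 1 group. The bound of an at least N-fold difference sets the brighter mean against, on each dim array, the higher of the probe's own value and the lowest signal well above background. Of 15323 mRNA probes 93.2% were named through RefSeq accessions. The number of arrays limits the precision. Fits were tested on simulated data. The lung fit recovered 83% of the smaller and 82% of the larger changes set in, with 6 false calls. The fit of clot against lung recovered 30% and 43%, with 10 false calls, so it missed most of them.

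The labels call the tumors matched but do not say that equal numbers mark a pair, and the main fit had no replicate block. The alternatives were other normalizations, background corrections and filters, marked spots kept, the methods' t-tests, blocks for replicate and scan session, near-identical arrays counted once and each array left out. The members, wider lists and markers were chosen with earlier results of these data known. In each list the 5 largest called differences in either direction were named, a gene with several probes by its brightest, and 1 gene that met this rule is not reported here; P2ry12, Cd36 and the markers of other cells were named after their values were seen.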

Additional observations from a re-analysis of the deposited data

How the results depend on the processing

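Fits of the lung comparison were repeated under 19 alternatives, those of the clots under 8 and those of clot against lung under 14, and no difference of a member turned its direction. Counts of calls over all probes moved more. In lung the 1683 probes higher became 968 with normexp background correction, 1090 in the methods' paired t-test and 778 with near-identical arrays counted once, and the 1929 lower became 1256 with normexp and 976 with near-identical arrays counted once. The methods' t-test gave 1631 higher and 1898 lower at its unadjusted threshold and 1545 and 1830 after adjustment. With a replicate block, same-numbered lung tissues being taken as pairs, 1614 were higher and 1945 lower, and of the genes named only Plcb2 lost its call (adjusted p = 0.0711). The deviations of same-numbered arrays correlated at 0.14, -0.04 and 0.16, and not every array correlated best with its own number, so the samples may share only a number. Between the clots the 3339 probes higher became 1490 with normexp and 2097 among probes well above background on both arrays, and the 2757 lower became 841 and 1733. With a shift of the 75th percentile 3229 were higher and 3611 lower, so the larger of these counts changed side. Between clot and lung the 5486 higher became 8559 with the 75th percentile over probes well above background on all 8 arrays and 3106 among those probes alone, and the 7875 lower became 5160 and 3719, and 5049 with near-identical arrays counted once. Of the platelet lists in lung, the 8 genes higher became 14 in the authors' log2 values, 13 with marked spots kept and 4 with near-identical arrays counted once. Between the clots the 10 higher and 31 lower became 6 and 20 with normexp, and 9 and 46 with a shift of the 75th percentile. Between clot and lung the 30 lower became 18 with the percentile over well above background probes and 17 with near-identical arrays counted once. Fewer probes or samples entered the filters and the counted-once fit; for the rest the cause was not tested. Dim signal limits Ppbp and Gp9 in tumor to bounds.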
